A study of Musa acuminata AAA Group with 4 samples.

Results

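This account covers the zinc finger proteins and CONSTANS-like factors of Cavendish banana (Musa acuminata, AAA Group) under low nitrogen. Included were all genes of the authors' filtered tables for leaf or root whose best BLAST description named a zinc finger, CONSTANS, a GATA transcription factor, a Dof zinc finger or a ZAT protein, leaving out ubiquitin and RING proteins. The rule found 59 genes, called members here, among 3396 genes of either table and 31873 genes listed in any library. Of the 59 members, 46 came from the leaf table, 13 from the root table and 0 from both, while 183 genes of all kinds were in both. Plants stood in sand under treatment for 60 days, and 4 libraries of poly(A) RNA were sequenced, with 1 library in each group: low-N leaf, normal-N leaf, low-N root and normal-N root. Low-N plants received a low-nitrogen culture solution and normal-N plants a complete Hoagland solution. All plants were of cv. Cavendish, and the aboveground samples called leaf here held leaves and pseudostems together, per the series' design text.

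A zinc finger is a small protein fold held together by a zinc ion, and plants use it in several unrelated families. CONSTANS-like and B-box proteins act in light signalling and photoperiodic flowering, and GATA factors and Dof factors bind DNA and act in light, carbon and nitrogen responses. C2H2 proteins of the ZAT type act in abiotic stress responses. INDETERMINATE DOMAIN proteins pattern tissues, A20/AN1 proteins are stress-associated, and many CCCH proteins bind RNA.

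A single library stood for each group, so differences below lack replicate error and are given without tests or p-values. Levels are FPKM (fragment counts scaled to gene length and library size), with a gene missing from a library's list read as 0. Each fold compares whole-rounded expected counts after division by the library totals, and the range beside it is an exact 95% Clopper-Pearson interval that covers counting error only. Libraries held 4144048 to 4408992 expected counts, and a floor of 3 counts corresponded to 0.313 to 2.98 FPKM across the members' lengths. A member was called higher or lower by size when its log2 change, taken after adding 1 FPKM to both levels, reached 1 or -1 and its level was 2 FPKM or more in one of the libraries compared. This scale understates the change of genes with low levels. The leaf markers checked were RuBisCO small chain and chlorophyll a-b binding genes of the authors' filtered tables. Of these, 16 of 17 were higher in leaf than in root by size under normal N. The exception was a RuBisCO small chain gene (Ma07_g15870). Of the 2 root markers, the Casparian strip gene Ma08_g07640 was listed at 0 in both leaf libraries. The high-affinity nitrate transporter 2.1-like gene (Ma08_g13030) was lower in leaf than in root by size under both solutions but not at 0, with 9.47 FPKM in low-N leaf and 2.54 FPKM in normal-N leaf, 3.72-fold higher (2.15 to 6.79). In root that transporter gene was at 22.3 FPKM under low N and 173 FPKM under normal N, 7.73-fold lower (6.55 to 9.18). Counts of 36 of the 59 members were not whole in at least 1 library (tolerance 0.005), so fragments may have been shared with similar genes, and levels of close copies are uncertain.

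In leaf, most members were higher under low N, and in root most of those picked there were lower. Per the authors' deposited table of the leaf comparison, 37 members were higher and 9 lower. The whole of that deposited table of the authors held 1501 genes higher and 724 lower, which are 5.26% and 2.54% of the genes listed in either leaf library. Per the authors' deposited table of the root comparison, 4 members were higher and 9 lower, beside 534 genes higher and 820 lower, or 1.75% and 2.69% of the genes listed there. Since the tables chose the members, these counts are a description only.

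By size, low-N leaf had 37 of the 59 members higher and 10 lower, while 11.7% of all genes at the filter were higher and 6.70% lower. Of the members 50 reached that filter in leaf. The members' median log2 change was 1.13 in leaf, against 0.12 for all genes at the filter. That gap was largely set by the rule, since 46 members were picked on this same change. The leaf median was 1.30 for those 46 and 0.00 for the 13 members of the root table. Family counts below carry the same limit. Of all called genes 63.6% were higher in low-N leaf as deposited, but 46.2% after median-ratio scaling, which moved the median of all genes to -0.08; the members were then 28 higher and 10 lower. In root, 4 members were higher and 10 lower by size, beside 4.67% and 6.90% of all genes at the filter, with medians of 0.00 for the members and -0.01 for all genes. There 51 members reached the filter. Summed over the members, the level was 3499 FPKM in low-N leaf and 1529 FPKM in normal-N leaf. In root the sum was 2836 FPKM under low N and 2820 FPKM under normal N. Fewer cells of a type and less RNA per cell cannot be told apart in such bulk samples. The leaf markers moved in the same pair of libraries, with a summed level of 21033 FPKM in low-N leaf and 50963 FPKM in normal-N leaf and with 16 of 17 lower by size. The authors' filter chose these markers on a change in leaf or root. Their count and sum are therefore a description and do not cover marker genes outside the filter. The part of the leaf markers in the members' differences was not tested.

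**Figure D1:**
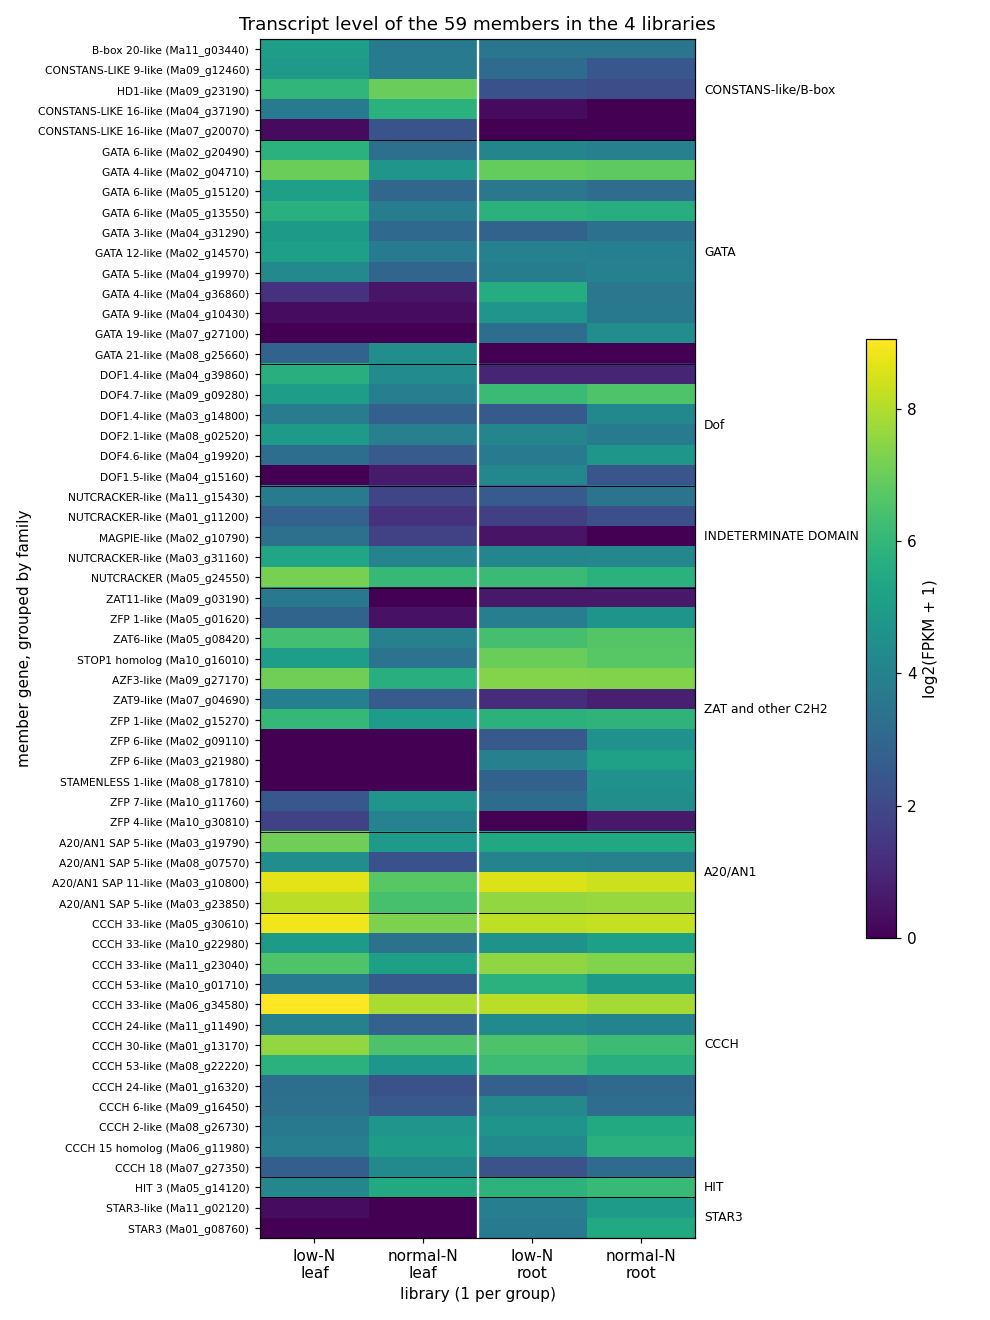
Level of each of the 59 members, as log2 of (FPKM + 1) on the colour scale, in the 4 libraries (columns, 1 library each), with genes in rows grouped by family. Most rows are brighter in low-N leaf than in normal-N leaf, while the root columns resemble each other, and 5 of the 13 root-table members are at 0 in both leaf libraries.

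CONSTANS-like and B-box genes, all 5 picked in leaf, split into 2 higher and 3 lower under low N. The HD1-like gene (Ma09_g23190), named after the rice regulator of photoperiodic flowering, was at 61.6 FPKM in low-N leaf and 126 FPKM in normal-N leaf, 2.04-fold lower (1.74 to 2.41). It was the most abundant of the 5 by mean level, and in root it was at 3.92 FPKM in low-N root and 3.40 FPKM in normal-N root. A CONSTANS-LIKE 16-like gene (Ma04_g37190) was at 12.25 FPKM in low-N leaf and 53.96 FPKM in normal-N leaf, 4.41-fold lower (3.34 to 5.91). The other CONSTANS-LIKE 16-like gene (Ma07_g20070) was at 0.20 FPKM in low-N leaf and 4.14 FPKM in normal-N leaf, 21.9-fold lower (3.54 to 903), with 1 count in the low-N library. Both CONSTANS-LIKE 16-like genes were near or at 0 in root, with 0.19 FPKM (Ma04_g37190) in low-N root as their highest value.

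The remaining genes of this family were higher in low-N leaf. CONSTANS-LIKE 9-like (Ma09_g12460), whose Arabidopsis namesake delays flowering, was at 27.8 FPKM in low-N leaf and 12.6 FPKM in normal-N leaf, 2.19-fold higher (1.63 to 2.98). In root it was at 7.92 FPKM in low-N root and 4.51 FPKM in normal-N root, 1.75-fold higher (1.05 to 2.99). B-box zinc finger protein 20-like (Ma11_g03440), of a family that acts in light signalling, was at 32.4 FPKM in low-N leaf and 12.75 FPKM in normal-N leaf, 2.54-fold higher (1.73 to 3.80). In root its levels were alike, at 10.76 FPKM in low-N root and 10.77 FPKM in normal-N root. After median-ratio scaling the log2 change of CONSTANS-LIKE 9-like (Ma09_g12460) was 0.88 and no longer past the size limit, which left 1 gene of the family higher and 3 lower.

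CONSTANS acts downstream of the circadian clock and of photoreceptors and upstream of FLOWERING LOCUS T. Clock, photoperiod and blue-light receptor genes of the filtered tables are given beside it, without a claim that each acts on CONSTANS. By size, 2 of 9 such genes were higher in low-N leaf and 3 lower, beside 11.7% and 6.70% of all genes at the filter. In low-N root 2 were higher and 2 lower, beside 4.67% and 6.90%. Their median log2 change was 0.00 in leaf and 0.79 in root, beside 0.12 and -0.01 for all genes at the filter. The authors' filter chose these 9 genes on these same changes, so the counts and medians are a description. In leaf, LUX-like genes, named after an evening component of the clock, were at 12.3 FPKM (Ma03_g22000) and 56.65 FPKM (Ma08_g17730) in low-N leaf, against 46.1 and 130 FPKM in normal-N leaf. Phototropin-2 (Ma08_g26200), a blue-light receptor, was 2.14-fold lower there (2.03 to 2.26). In root it went the other way but was not called by size, at 6.01 FPKM in low-N root and 3.05 FPKM in normal-N root, 1.97-fold higher (1.31 to 2.99). ELF4-LIKE 3-like (Ma10_g17670), of the family of the Arabidopsis clock gene EARLY FLOWERING 4, was 2.15-fold higher in low-N leaf (1.67 to 2.78) and 2.19-fold higher in low-N root (1.45 to 3.37). Cryptochrome-1-like (Ma05_g20910), another blue-light receptor, was 2.13-fold higher in low-N leaf (1.61 to 2.83).

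In root, the clock gene GIGANTEA-like (Ma10_g20950) was at 24.2 FPKM in low-N root and 7.25 FPKM in normal-N root, 3.32-fold higher (2.69 to 4.13). In leaf it differed little, at 142 FPKM in low-N leaf and 136 FPKM in normal-N leaf. FLOWERING LOCUS T-like (Ma02_g07820) was at 0.44 FPKM in low-N root and 7.84 FPKM in normal-N root, 18.1-fold lower (2.85 to 753), with 1 count behind the low-N value. It was listed at 0 in both leaf libraries. The LUX-like gene Ma08_g17730 was also lower in root, 3.93-fold (2.49 to 6.44). SPA1-RELATED 4-like (Ma03_g32970) and SPA1-RELATED 2-like (Ma11_g10150) lay just under the size limit in root, with log2 changes of 0.99 and 0.98. By counts they were 2.38-fold (1.51 to 3.85) and 2.37-fold (1.57 to 3.66) higher in low-N root.

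The GATA family had 11 members, of which 7 were higher and 1 lower by size in low-N leaf and 2 were higher and 1 lower in low-N root. Those counts were the same after median-ratio and upper-quartile scaling. GATA transcription factor 4-like (Ma02_g04710) was the most abundant, at 129 FPKM in low-N leaf and 25.4 FPKM in normal-N leaf, 5.06-fold higher (4.15 to 6.22). Its root levels were close to the low-N leaf level, at 119 FPKM in low-N root and 111 FPKM in normal-N root. The GATA transcription factor 6-like genes were all higher in low-N leaf, by 5.86-fold (4.19 to 8.37, Ma02_g20490), 4.78-fold (3.34 to 7.01, Ma05_g15120) and 3.90-fold (3.003 to 5.11, Ma05_g13550). Of these, Ma02_g20490 was at 54.4 FPKM in low-N leaf, against 9.26 FPKM in normal-N leaf. GATA transcription factor 3-like (Ma04_g31290) was 4.05-fold (2.83 to 5.90), 5-like (Ma04_g19970) 2.66-fold (1.74 to 4.16) and 12-like (Ma02_g14570) 2.62-fold (1.77 to 3.97) higher. All 7 had root intervals that included a fold of 1.

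GATA transcription factor 21-like (Ma08_g25660) went the other way in leaf. In Arabidopsis GATA21 is GNC, a nitrate-inducible factor that promotes chlorophyll synthesis. The banana gene was at 6.46 FPKM in low-N leaf and 21.2 FPKM in normal-N leaf, 3.29-fold lower (1.74 to 6.67), and it was listed at 0 in both root libraries. The chlorophyll a-b binding genes listed with RuBisCO as leaf markers, also chosen by the authors' filter, were lower in the same library. Their part in this difference was not tested.

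The root table held 3 other GATA genes, and their leaf levels were at most 1.43 FPKM (Ma04_g36860). That gene, also GATA transcription factor 4-like, was at 47.4 FPKM in low-N root and 11.2 FPKM in normal-N root, 4.23-fold higher (3.09 to 5.87). GATA transcription factor 9-like (Ma04_g10430) was at 25.65 FPKM in low-N root and 11.7 FPKM in normal-N root, 2.18-fold higher (1.56 to 3.08). GATA transcription factor 19-like (Ma07_g27100), whose Arabidopsis namesake belongs to the HANABA TARANU group of organ boundary factors, was at 8.65 FPKM in low-N root and 20.6 FPKM in normal-N root, 2.39-fold lower (1.53 to 3.82).

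**Figure D2:**
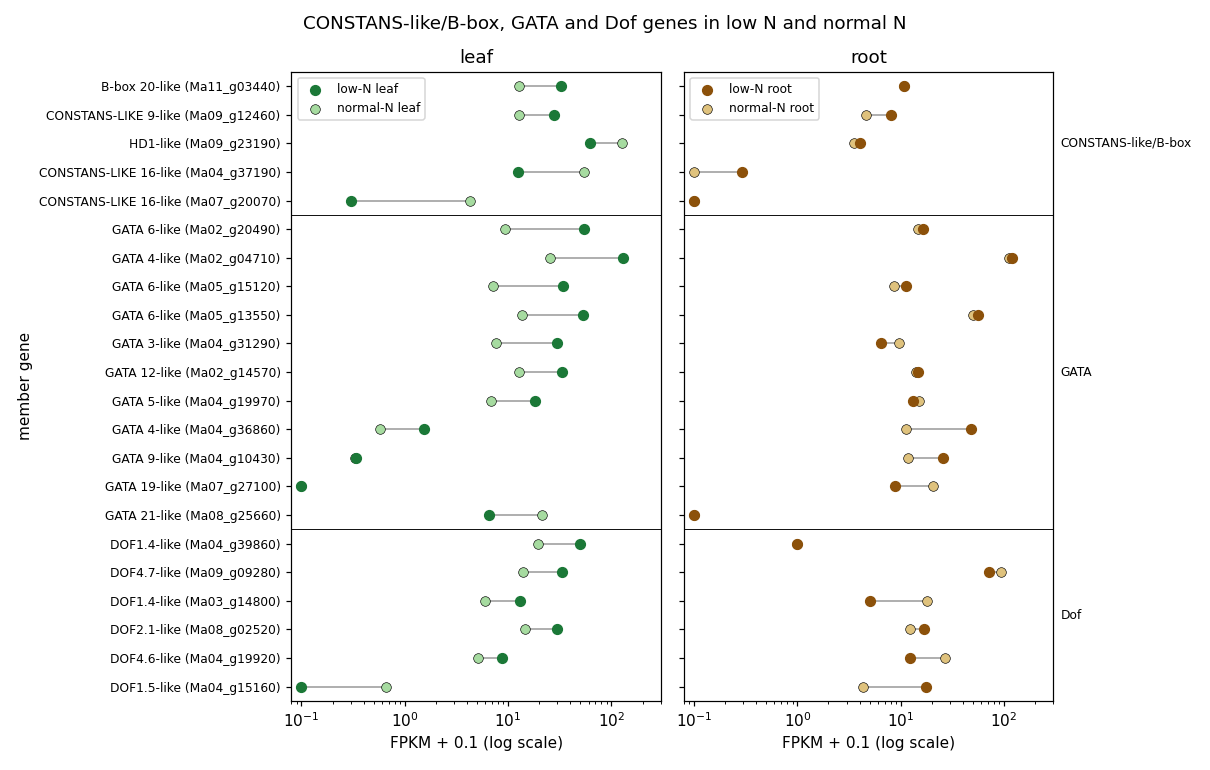
Levels of the CONSTANS-like/B-box, GATA and Dof genes as FPKM + 0.1 on a log axis, in leaf (left) and root (right), with a dark point for low N and a pale point for normal N (1 library each). In leaf the low-N points of the 7 GATA genes called higher lie to the right, while those of GATA 21-like and 3 CONSTANS-like genes lie to the left, and in root most pairs lie close together.

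Dof factors are plant-specific, with a single zinc finger that binds DNA. Of 6 members, 3 of them from each table, 3 were higher and 0 lower by size in low-N leaf, and 1 was higher and 2 lower in low-N root. After median-ratio scaling 2 were higher in leaf. DOF1.4-like (Ma04_g39860) was at 49.95 FPKM in low-N leaf and 19.55 FPKM in normal-N leaf, 2.55-fold higher (1.97 to 3.33), and at 0.90 FPKM in both root libraries. DOF4.7-like (Ma09_g09280) was at 33.0 FPKM in low-N leaf and 13.8 FPKM in normal-N leaf, 2.39-fold higher (1.76 to 3.28). In root the gene DOF4.7-like was 1.32-fold lower (1.14 to 1.52), at 71.2 FPKM in low-N root and 93.45 FPKM in normal-N root. DOF2.1-like (Ma08_g02520), in the leaf table, was 2.06-fold higher (1.42 to 3.02), but its log2 change on the FPKM + 1 scale, 0.99, lay just under the size limit.

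Of the Dof genes picked in root, DOF1.5-like (Ma04_g15160) was at 17.5 FPKM in low-N root and 4.24 FPKM in normal-N root, 4.11-fold higher (1.86 to 10.3). In Arabidopsis DOF1.5 is COG1, which acts in phytochrome signalling. A second DOF1.4-like gene (Ma03_g14800) was at 4.91 FPKM in low-N root and 17.9 FPKM in normal-N root, 3.66-fold lower (2.11 to 6.68). In leaf the same gene was 2.22-fold higher (1.26 to 4.04), at 12.96 FPKM in low-N leaf and 5.82 FPKM in normal-N leaf. DOF4.6-like (Ma04_g19920) was at 12.1 FPKM in low-N root and 26.85 FPKM in normal-N root, 2.21-fold lower (1.57 to 3.15). In leaf DOF1.5-like had at most 1 count a library, and the interval of DOF4.6-like, 0.964 to 3.25, included a fold of 1.

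All 5 INDETERMINATE DOMAIN genes, whose Arabidopsis namesakes NUTCRACKER and MAGPIE pattern root tissues together with SHORT-ROOT and SCARECROW, were higher by size in low-N leaf. All 5 were picked there as higher and 0 were picked in root, so their calls are a description. NUTCRACKER (Ma05_g24550) was the most abundant, at 146 FPKM in low-N leaf and 66.8 FPKM in normal-N leaf, 2.19-fold higher (1.91 to 2.50). A NUTCRACKER-like gene (Ma03_g31160) was at 39.85 FPKM in low-N leaf and 15.5 FPKM in normal-N leaf, 2.56-fold higher (2.03 to 3.24). The 3 others had folds of 3.60 to 4.52 in leaf. In root 0 of the 5 were called by size. NUTCRACKER (Ma05_g24550) was 1.32-fold higher there (1.13 to 1.55), and the NUTCRACKER-like gene Ma11_g15430 was 2.04-fold lower (1.34 to 3.15), at 5.02 FPKM in low-N root and 10.2 FPKM in normal-N root. After median-ratio scaling 4 of the 5 stayed past the size limit in leaf.

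The ZAT and other C2H2 genes, 12 in all, had 7 higher and 2 lower by size in low-N leaf, and 0 higher and 4 lower in low-N root. ZAT11-like (Ma09_g03190) was at 11.7 FPKM in low-N leaf and had 0 counts in normal-N leaf, at least 6.70-fold higher by the floor of 3 counts in that library. It was at 0.55 FPKM in both root libraries. ZAT6-like (Ma05_g08420), whose Arabidopsis namesake acts in phosphate homeostasis and stress, was at 81.1 FPKM in low-N leaf and 14.4 FPKM in normal-N leaf, 5.61-fold higher (4.11 to 7.80). Its root levels were 83.3 FPKM in low-N root and 97.6 FPKM in normal-N root. Under low N its leaf and root levels were alike, with a leaf-over-root fold of 0.970 (0.819 to 1.15). AZF3-like (Ma09_g27170), the most abundant by mean level, was at 136 FPKM in low-N leaf and 50.0 FPKM in normal-N leaf, 2.72-fold higher (2.25 to 3.30), and in root at 163 FPKM under low N and 162 FPKM under normal N.

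The STOP1 homolog (Ma10_g16010) was at 31.9 FPKM in low-N leaf and 10.05 FPKM in normal-N leaf, 3.17-fold higher (2.35 to 4.32). STOP1 is the Arabidopsis regulator of acid and aluminium tolerance in roots. In root the banana gene was more abundant, at 130 FPKM in low-N root and 104 FPKM in normal-N root, 1.25-fold higher (1.13 to 1.39). Zinc finger protein 1-like (Ma05_g01620) was at 6.47 FPKM in low-N leaf and 0.36 FPKM in normal-N leaf, 18.1-fold higher (2.86 to 754), with 1 count in the normal-N library. In root it was 1.79-fold lower (1.20 to 2.69). ZAT9-like (Ma07_g04690) and another zinc finger protein 1-like gene (Ma02_g15270) were 2.71-fold and 2.06-fold higher in low-N leaf and not called in root. After median-ratio scaling 6 of the 12 were higher and 2 lower in leaf.

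The C2H2 genes lower in low-N leaf were zinc finger protein 4-like and zinc finger protein 7-like. Zinc finger protein 4-like (Ma10_g30810) was at 2.37 FPKM in low-N leaf and 15.3 FPKM in normal-N leaf, 6.47-fold lower (2.24 to 25.5). Zinc finger protein 7-like (Ma10_g11760) was at 4.56 FPKM in low-N leaf and 25.4 FPKM in normal-N leaf, 5.57-fold lower (2.82 to 12.2). It was lower in root too, at 8.12 FPKM in low-N root and 21.4 FPKM in normal-N root, 2.64-fold (1.53 to 4.74).

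The root table held 3 more C2H2 genes, all at 0 in both leaf libraries and all lower in low-N root. Zinc finger protein 6-like was at 4.72 FPKM in low-N root and 23.0 FPKM in normal-N root for one gene (Ma02_g09110), 4.88-fold lower (2.78 to 9.17). The other zinc finger protein 6-like gene (Ma03_g21980) was at 14.2 FPKM in low-N root and 35.35 FPKM in normal-N root, 2.50-fold lower (1.74 to 3.65). STAMENLESS 1-like (Ma08_g17810), named after a rice regulator of floral organs, was at 6.01 FPKM in low-N root and 22.7 FPKM in normal-N root, 3.79-fold lower (2.23 to 6.77). STAR3 (Ma01_g08760) and STAR3-like (Ma11_g02120) showed the same arrangement, with at most 0.22 FPKM in leaf. STAR3 was at 12.7 FPKM in low-N root and 44.65 FPKM in normal-N root, 3.53-fold lower (2.55 to 4.98), and STAR3-like was 2.27-fold lower (1.68 to 3.08).

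All 4 A20/AN1 stress-associated members were picked as higher in low-N leaf and 0 were picked in root, so their calls are a description. By size, 4 of 4 were higher in low-N leaf, under each scaling tried, and 0 of 4 were called in root. Stress-associated protein 11-like (Ma03_g10800) was at 414 FPKM in low-N leaf and 103 FPKM in normal-N leaf, 4.02-fold higher (3.43 to 4.74). It was at 377 FPKM in low-N root and 327 FPKM in normal-N root, a fold of 1.15 (1.03 to 1.28). The 5-like genes were 5.31-fold (2.34 to 14.1, Ma08_g07570), 4.69-fold (3.48 to 6.42, Ma03_g19790) and 3.24-fold (2.81 to 3.74, Ma03_g23850) higher in low-N leaf. Summed over the 4 genes, the level was 845 FPKM in low-N leaf and 220 FPKM in normal-N leaf. In root it was 629 FPKM under low N and 583 FPKM under normal N.

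CCCH proteins were the largest family, with 13 members, of which 9 were higher and 3 lower by size in low-N leaf and 1 was higher and 1 lower in low-N root. After median-ratio scaling, 4 were higher and 3 lower in leaf. Among the CCCH protein 33-like genes, Ma06_g34580 was at 531 FPKM in low-N leaf and 241 FPKM in normal-N leaf, the highest level of any member, and 2.20-fold higher (2.08 to 2.32). Another, Ma05_g30610, was at 467 FPKM in low-N leaf and 154 FPKM in normal-N leaf, 3.03-fold higher (2.85 to 3.23). In root Ma06_g34580 was at 275 FPKM in low-N root and 230 FPKM in normal-N root, and Ma05_g30610 at 289 FPKM in low-N root and 303 FPKM in normal-N root. The 5 other CCCH genes higher in low-N leaf, described as proteins 24-like, 30-like and 33-like, had leaf folds of 2.06 to 3.18. The log2 change of Ma06_g34580 in leaf was 0.92 after median-ratio scaling, under the size limit.

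Lower in low-N leaf were CCCH protein 18 (Ma07_g27350), 3.72-fold (2.55 to 5.57), and CCCH protein 2-like (Ma08_g26730), 2.16-fold (1.54 to 3.06). CCCH protein 2-like was at 11.7 FPKM in low-N leaf and 25.3 FPKM in normal-N leaf. In root both were lower as well, by 1.97-fold (1.25 to 3.17) and 1.82-fold (1.44 to 2.30), though neither was called by size. CCCH protein 15 homolog (Ma06_g11980), of the root table, was at 19.1 FPKM in low-N root and 53.0 FPKM in normal-N root, 2.79-fold lower (1.60 to 5.08), and at 13.6 FPKM in low-N leaf and 30.3 FPKM in normal-N leaf, 2.24-fold lower (1.10 to 4.85). The CCCH protein 53-like genes were called higher in leaf only, but their counting intervals lay above a fold of 1 in both tissues. The gene Ma10_g01710 was 2.59-fold higher in low-N leaf (1.82 to 3.74) and 1.82-fold higher in low-N root (1.58 to 2.11). The gene Ma08_g22220 was 2.09-fold higher in low-N leaf (1.78 to 2.45) and 1.41-fold higher in low-N root (1.26 to 1.59). CCCH protein 6-like (Ma09_g16450), of the root table, was at 18.3 FPKM in low-N root and 8.52 FPKM in normal-N root, 1.99-fold higher (1.42 to 2.83). The HIT domain protein 3 gene (Ma05_g14120), outside these families, was at 17.5 FPKM in low-N leaf and 44.6 FPKM in normal-N leaf, 2.56-fold lower (1.63 to 4.11).

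**Figure D3:**
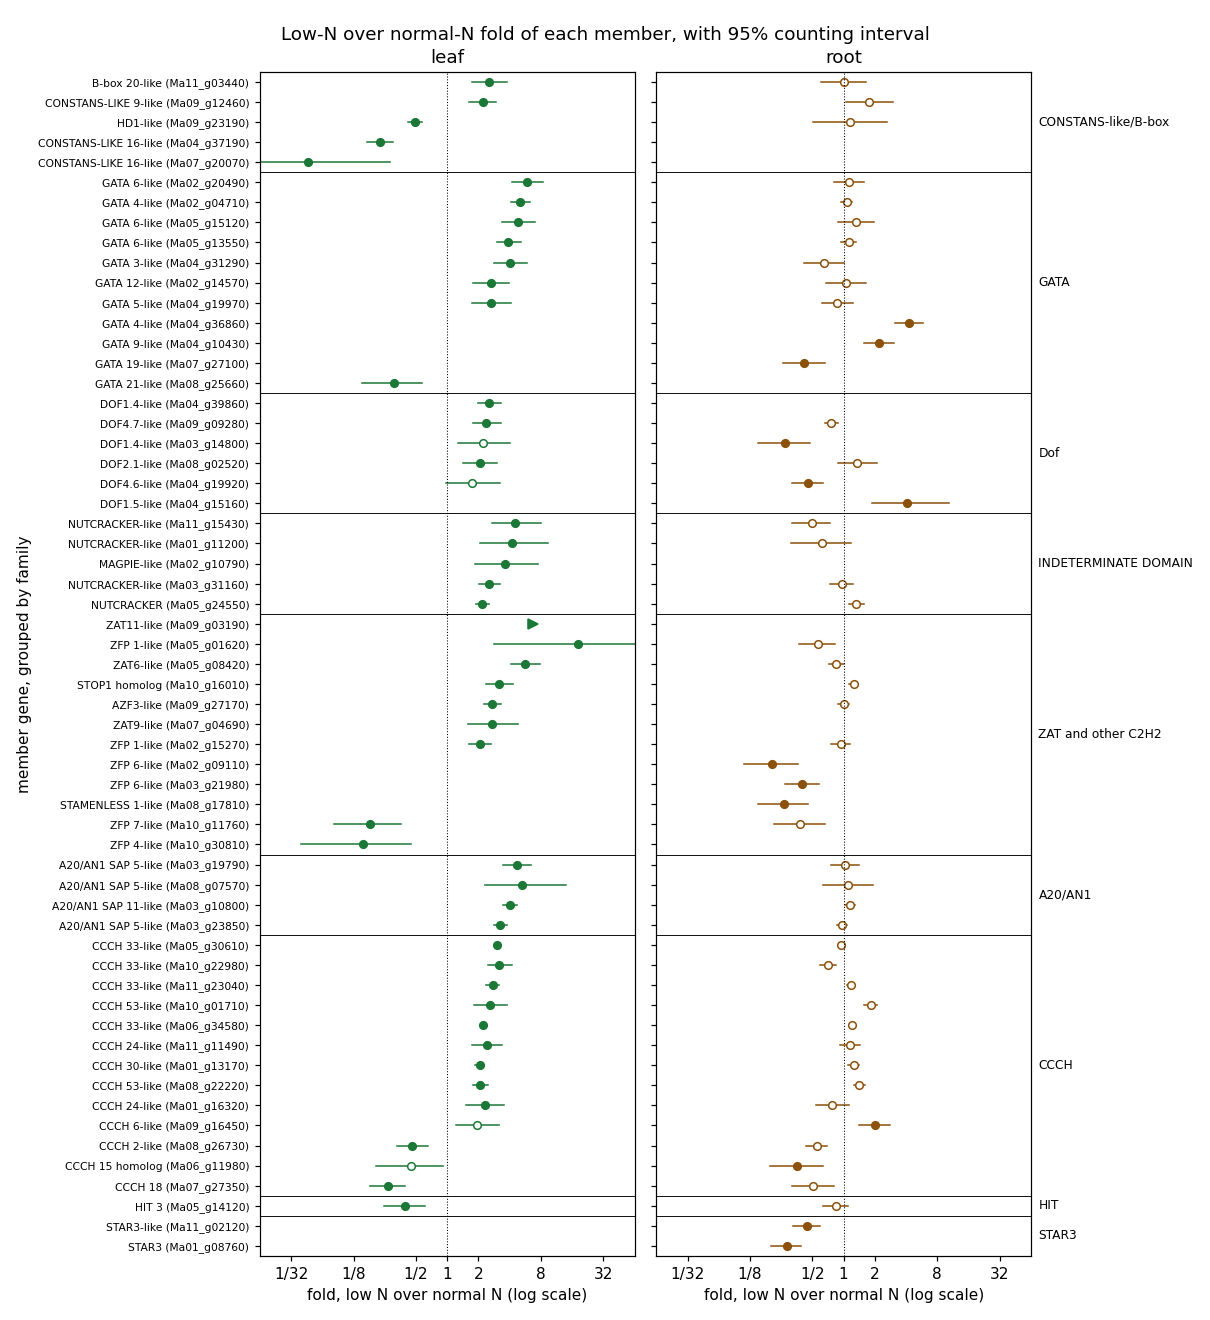
Fold of low N over normal N for each member on a log axis in leaf (left) and root (right), with bars for the 95% counting interval, cut at the edge of the axis, filled points for the tissue whose table held the gene, and a triangle for the bound of ZAT11-like. Genes with fewer than 10 counts over both libraries of a tissue have no point; most filled points lie right of 1 in leaf, and most open points in root lie near 1.

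In the tissue whose table did not hold them, few members passed the size limit. That was largely fixed in advance, since 0 members were in both tables and the authors' tables also had a log2 limit of 1. Of the 46 leaf-table members, 0 were higher and 1 was lower by size in root, and their median log2 change there was 0.00, with a range of -1.30 to 0.86. By counting intervals alone, 9 of the 46 were above a fold of 1 in root and 8 below it, which is 19.6% and 17.4%. Among all genes of the leaf table, 18.5% were above and 20.9% below, and of all genes with a count in root 13.7% and 14.4%, so the members' shares were near those of the table they came from. Of the 13 root-table members, 1 was higher and 1 lower by size in leaf. By size, 3 members were called in both tissues: zinc finger protein 7-like and CCCH protein 15 homolog were lower in both, and DOF1.4-like (Ma03_g14800) was higher in leaf and lower in root. After median-ratio scaling the leaf log2 change of DOF1.4-like was 0.85, under the size limit. Of the 31873 genes listed in any library, 521 were called by size in both tissues, 278 of them in the same direction. Members were picked for a change in leaf or root, so their count of 3 is a description only.

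In the authors' deposited tables the log2 ratio was at least 1.00 in size and the FDR at most 0.000997. Nearest that limit, with values from the authors' deposited tables, were the HD1-like gene in leaf, with a log2 ratio of -1.03, and CCCH protein 6-like in root, with 1.10. Among members absent from a tissue's table, CCCH protein 6-like (Ma09_g16450) had a log2 FPKM ratio of 0.96 in leaf and CCCH protein 53-like (Ma10_g01710) one of 0.88 in root. Some absent members had ratios past 1 in size: 1.61 for the GATA 4-like gene Ma04_g36860 in leaf, on 6 counts in low-N leaf and 2 counts in normal-N leaf, and -1.40 for zinc finger protein 7-like (Ma10_g11760) in root. In leaf the ratio was also -1.16 for CCCH protein 15 homolog (Ma06_g11980) and 1.15 for DOF1.4-like (Ma03_g14800). In root it was -1.02 for both CCCH protein 18 (Ma07_g27350) and NUTCRACKER-like (Ma11_g15430).

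Levels of leaf and root were also set against each other under each solution. Under normal N, 10 members were higher and 27 lower in leaf than in root by size, beside 20.1% and 42.2% of all genes at the filter. Under low N, 21 members were higher and 14 lower in leaf than in root, beside 22.8% and 37.1%. Of the 37 members that the authors' deposited table of the leaf comparison gave as higher, 4 were higher and 16 lower in leaf than in root under normal N, and 16 were higher and 3 lower under low N. Their median level was 33.3 FPKM in leaf under low N and 12.75 FPKM under normal N. In root it was 18.7 FPKM under low N and 24.6 FPKM under normal N. The leaf libraries that chose these genes also enter this comparison, so the shift is a description.

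At the leaf end stood the HD1-like gene, the CONSTANS-LIKE 16-like gene Ma04_g37190, DOF1.4-like (Ma04_g39860), GATA transcription factor 21-like and zinc finger protein 4-like, which had log2 values of leaf over root of 3.39 to 5.78 under normal N and of 1.75 to 4.75 under low N. At the root end stood STAR3, STAR3-like, zinc finger protein 6-like (Ma03_g21980) and GATA transcription factors 9-like and 19-like, at -5.51 to -3.37 under normal N and -4.43 to -3.27 under low N. Of the 13 root-table members, 5 were listed at 0 in both leaf libraries, 38.5%, beside 15.3% of the whole root table. Of the 46 leaf-table members, 2 were listed at 0 in both root libraries, 4.35%, beside 2.65% of the whole leaf table.

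**Figure D4:**
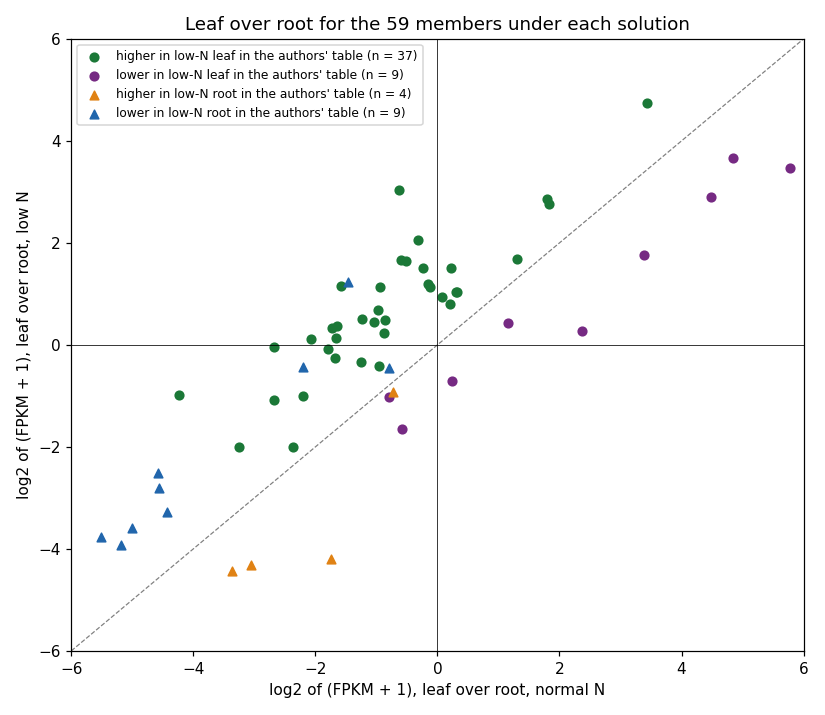
Log2 of (FPKM + 1) in leaf over root for each of the 59 members, under low N (vertical axis) and normal N (horizontal axis), coloured by direction in the authors' tables, with the dashed line marking equal values. The 37 members higher in low-N leaf lie above the line and the 9 lower there below it; the leaf change that chose them is part of the distance from the line, the root change being the other part, and the root-table members lie mostly at the lower left.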

How the data were processed

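RNA of 4 samples was measured by poly(A) RNA sequencing, 1 library a group, with random hexamers and no strand-marking step stated per the labels' protocols. BWA and Bowtie appear in the processing notes, per the submitters, with no stated role. Which counting tool, build, annotation and test lay behind the files is not given in the sources used here. Per the file headers, the authors deposited an expected count (an estimated number of fragments) and an FPKM value per gene and library. They also deposited filtered tables with a log2 ratio, p-values and FDR of low N over normal N, which compare a library with a library and were not used as tests. A level of 0 was written as 0.001 FPKM in them.

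From these files, values were joined by gene, members were found by their BLAST description, and folds, intervals and calls by size were computed with Python 3.11.15, pandas 2.3.3, numpy 2.4.6 and scipy 1.17.1, and plotted with matplotlib 3.10.9. The pseudocount was 1 FPKM, the filter 2 FPKM in the higher library and the log2 size limit 1. The steps were tested on data simulated for the leaf comparison with counting error only. All 200 changed genes, drawn from genes with many counts and given changes well past the size limit, were recovered. Such recovery was nearly assured by that setting. Of 31873 genes simulated, 596 unchanged genes were also called by size. Recovery of changes in genes with few counts, or of changes near the size limit, was not covered. Lengths of 93.2% of the members were multiples of 3, so lengths may be coding lengths. Member IDs were looked up in a RefSeq gene table of the assembly Cavendish_Baxijiao_AAA, where 0 of 59 were found, so coordinates and sequences are not given.

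Members and lists were chosen with earlier results of these data known. Families were assigned from the description, with HD1 and STAMENLESS 1 placed after the descriptions were read. Named genes were the 10 largest increases and 10 largest decreases in each tissue with at least 5 FPKM, the 2 most abundant per family, the 5 most leaf-sided and 5 most root-sided members, all CONSTANS-like, GATA and Dof genes, genes called in opposite directions, the members nearest the authors' limit, and clock genes called by size. STOP1, ZAT9-like, a zinc finger protein 1-like gene (Ma02_g15270), NUTCRACKER-like (Ma11_g15430) and CCCH protein 33-like (Ma10_g22980) fell outside that rule and were named after their values were seen. The same holds for the SPA1-RELATED genes. Alternatives were pseudocounts of 0.1 and 5 FPKM, a filter of 10 FPKM or none, a limit of 2 in place of 1, median-ratio and upper-quartile scaling, library-scaled counts in place of FPKM, the exclusion read with case, and transcription factor families alone.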

Additional observations from a re-analysis of the deposited data

Results flagged for a closer look

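With 1 library in each group, differences between the tissues were not tested. The members below were those whose counting intervals lay above a fold of 1 in low-N leaf over normal-N leaf and under 1 in low-N root over normal-N root, 6 genes in all. Of all genes with counts in both tissues, 3.48% showed this arrangement and 2.00% the opposite one, which 0 members showed. The choice of members weights these counts, since 37 of the 46 leaf-table members were picked as higher in low-N leaf and 9 as lower. Of those 37 members 5 (13.5%) had a root interval under 1, beside 20.1% of the 1501 genes higher in the leaf table. DOF1.4-like (Ma03_g14800) had a fold of 2.22 in leaf and 0.273 in root, and only this gene was also called by size in both tissues. Its leaf log2 change was 0.85 after median-ratio scaling and 0.92 after upper-quartile scaling, both under the size limit. Zinc finger protein 1-like (Ma05_g01620) had 18.1 in leaf, from 1 count in normal-N leaf, and 0.560 in root. ZAT6-like (Ma05_g08420) had 5.61 in leaf and 0.852 in root, where the interval reached 0.998. DOF4.7-like (Ma09_g09280) had 2.39 in leaf and 0.760 in root. CCCH protein 33-like (Ma10_g22980) had 3.18 in leaf and 0.708 in root. NUTCRACKER-like (Ma11_g15430) had 4.52 in leaf and 0.491 in root.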

How the results depend on the processing

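No paired analysis was possible because each group had 1 library, and no replicate could be left out. With median-ratio scaling, the leaf median over all genes was -0.08, against 0.12 as deposited, and 46.2% of all called genes were higher, against 63.6%; among the members it left 28 higher and 10 lower in leaf, 73.7% higher against 78.7% as deposited, and a median of 0.92. Upper-quartile scaling left 30 higher and 10 lower, with a median of 1.00. A pseudocount of 0.1 FPKM gave a leaf median of 1.25. A pseudocount of 5 FPKM gave a leaf median of 0.91, 6 members lower in leaf, 2 higher in root, and 5 higher in leaf than in root under normal N. A size limit of 2 left 8 higher and 4 lower in leaf, 0 higher and 1 lower in root, 6 higher and 16 lower in leaf than in root under normal N, and 8 higher under low N. Transcription factor families alone gave 24 higher and 6 lower in leaf, and 9 lower in leaf than in root under low N. Counting only members of the other tissue's table, an alternative chosen after seeing the data, gave 1 higher, 1 lower and a median of 0.00 in leaf, and 0 higher and 1 lower in root. Fewer members enter those last 2 settings by construction, and the last also leaves out, in each tissue, the members picked on that tissue's own change. A higher size limit cannot call more members, and a larger pseudocount shrinks each log2 change. The cause of the shifts under scaling was not tested. Of the other 78 counts and medians of the members under alternatives, all stayed within 1.5 times or 0.1 of the values given. Of single-gene log2 changes and folds, 717 stayed within those limits or their counting interval and 9 moved; no called member changed direction. Depth limits the genes with few counts, such as those with 1 count in a library.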
